A study of Mus musculus with 6 samples.

Results

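Matricellular proteins and glycoproteins are the part of the extracellular matrix that tunes cell adhesion and organises fibres, and the genes described here are Postn and 9 others of this kind (Tnc, Sparc, Thbs1, Fn1, Fbn1, Fbln1, Fbln2, Eln and Lox). They were taken as every probe set that the array's annotation assigns to one of these symbols alone, which gave 20 of 45101 probe sets. A probe set is a group of short probes meant to read the transcripts of 1 gene, though 932 on this array carried several symbols. The 20 covered 9 of the 10 genes: 3 probe sets each for Sparc, Fbln1 and Lox, 2 each for Tnc, Thbs1, Fn1, Fbln2 and Eln, and 1 for Postn. No probe set of the annotation used here carried Fbn1 (fibrillin-1), which is therefore not analysed here. Of the 20, 15 passed a filter on dim signals and 5 did not: the mean over the 6 arrays had to exceed 100.3, the median of all but the control probe sets.

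Ventricles of E11.5 mouse embryos of the 129SvEv strain supplied the RNA. The knockout group, 3 arrays numbered 1, 26 and 66 in their titles, carried a targeted deletion of skNAC, a muscle protein encoded by the Naca gene, and per the labels such embryos die with cardiac defects by E12.5. The wild-type group, 3 arrays numbered 13, 23 and 57, came from littermates. The labels name no Cre line or transgene. They do not say whether an array held 1 heart or several, so p-values measure only the spread between these samples, which may be technical. The study asked which transcripts differ in the knockout heart.

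The matrix of the embryonic heart at this stage lies between endocardium and myocardium and in the cushions that become valves. Fibronectin forms the early fibrils on which other matrix assembles. Elastin is laid on microfibrils with the help of fibulins and is crosslinked by lysyl oxidase. Periostin, tenascin-C, thrombospondin-1 and SPARC build little of the fibre mass and instead bind integrins, collagens and growth factors. In the developing mouse heart periostin is best known from cushion mesenchyme and from fibroblasts.

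RefSeq promoter sequences (build GRCm38.p6) are shown for Postn, which had the largest difference among these genes, and for Fbln2, the one of the other 8 whose pattern over the arrays was most like that of Postn. The promoter table held windows for 6 of the 10 genes, matched by symbol, and lists 2 starts for Postn. Each line gives the 250 bases before a start, 5′ to 3′ on the gene's strand, with each TATAAA in capitals and likewise each E-box, spelled CANNTG with N for any base. Both strands were searched.
Postn, first start (chr3:54359017-54359266, + strand): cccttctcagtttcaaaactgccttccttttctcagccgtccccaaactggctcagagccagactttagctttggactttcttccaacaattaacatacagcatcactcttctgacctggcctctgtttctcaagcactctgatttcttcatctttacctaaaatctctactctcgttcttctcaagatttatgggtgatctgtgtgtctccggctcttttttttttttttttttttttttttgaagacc
Postn, second start (chr3:54360857-54361106, + strand): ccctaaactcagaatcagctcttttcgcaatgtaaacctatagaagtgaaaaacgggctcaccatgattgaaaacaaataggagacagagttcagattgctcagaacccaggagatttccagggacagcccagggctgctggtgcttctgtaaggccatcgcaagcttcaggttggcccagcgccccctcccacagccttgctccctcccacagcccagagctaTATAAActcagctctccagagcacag
Fbln2 (chr6:91212514-91212763, + strand): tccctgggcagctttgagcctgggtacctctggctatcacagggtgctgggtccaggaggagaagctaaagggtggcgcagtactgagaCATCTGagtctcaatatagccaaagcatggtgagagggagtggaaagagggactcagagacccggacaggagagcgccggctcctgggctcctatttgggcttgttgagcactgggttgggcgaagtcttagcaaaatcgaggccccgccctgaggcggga
The window before the second Postn start held 1 TATAAA, its first base 26 bases before the start, and no E-box. The window before the first start held neither. The Fbln2 window held 1 E-box, whose first base lay 161 bases before the start, and it lacked the other motif. Among all 32851 promoter windows of this length in the table, 12.4% held TATAAA and 66.2% held an E-box. E-boxes are bound by basic helix-loop-helix factors such as Twist1, and TATAAA is the core of the TATA box. A match describes the letters only.

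The signals are MAS5 intensities on a linear scale, set by the authors to the same average on every array: the 2% trimmed mean was 250.0 on all 6, while medians ran from 92.0 to 113.9. Each signal is therefore a share of its own array's brightness, and levels cannot be compared between probe sets. Differences are given on the log2(signal + 16) scale, knockout minus wild-type, with a standard error (SE) and 95% interval from limma. Knockout 66 stood apart from the other arrays, with Pearson correlations of 0.924 to 0.936 over the 22518 probe sets that passed the filter, against 0.969 for the closest pair of arrays. Values without it are given for many of the genes and lists below. Genes whose arrays did not overlap were counted with all arrays and without knockout 66 only, not with another array left out. The 3′ to 5′ signal ratio of the actin control, which rises as RNA is degraded or shortened, was 2.49 to 2.57 in knockout and 2.05 to 2.24 in wild-type arrays, and that of Gapdh was 1.28 to 1.45 in knockout and 1.12 to 1.20 in wild-type arrays. The part of RNA quality in the results below was not tested. The targeted gene Naca gave a log2 difference of 0.08 ± 0.079 on its brighter probe set. Whether that probe set reads the deleted muscle part is not stated, so it does not check the labels. All 9 listed cardiomyocyte markers passed the filter, with 6 above 0, 3 below and a median of 0.03. Among them Myl2, the ventricular myosin light chain, was at 22206 ± 2883 in knockout and 18772 ± 526 in wild-type arrays (0.23 ± 0.09). Actc1 gave 0.15 ± 0.08, while Ttn gave -0.24 ± 0.17 and Tnnt2 -0.15 ± 0.08. Without knockout 66, 4 of the 9 were above 0 and 5 below.

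No member of the family passed the adjustment for multiple tests. With 1 brightest probe set per gene, 0 of the 9 genes had an adjusted p under 0.05, against a background of 0 of 11648 genes (0%) in limma. At an unadjusted p under 0.05 there was 1 member, Postn, on the lower side, where 309 of all genes (2.65%) were lower and 276 (2.37%) higher in knockout at that level. Of the 9, 8 had a log2 difference below 0 and 1, Eln, above it, while 49.5% of all genes were below 0 and 50.5% above. Without knockout 1 there were 5 below and 4 above, namely Tnc, Eln, Fn1 and Sparc, with 48.4% of all genes below. The median difference was -0.10 over the 9 genes and 0.0025 over all genes tested. The median over the 9 was -0.02 without knockout 1, -0.19 without knockout 26 and -0.18 without knockout 66. The arrays of the 2 genotypes overlapped in all 9, whereas in 5.43% of all genes all wild-type arrays exceeded all knockout arrays and in 5.37% the reverse held.

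**Figure D1:**
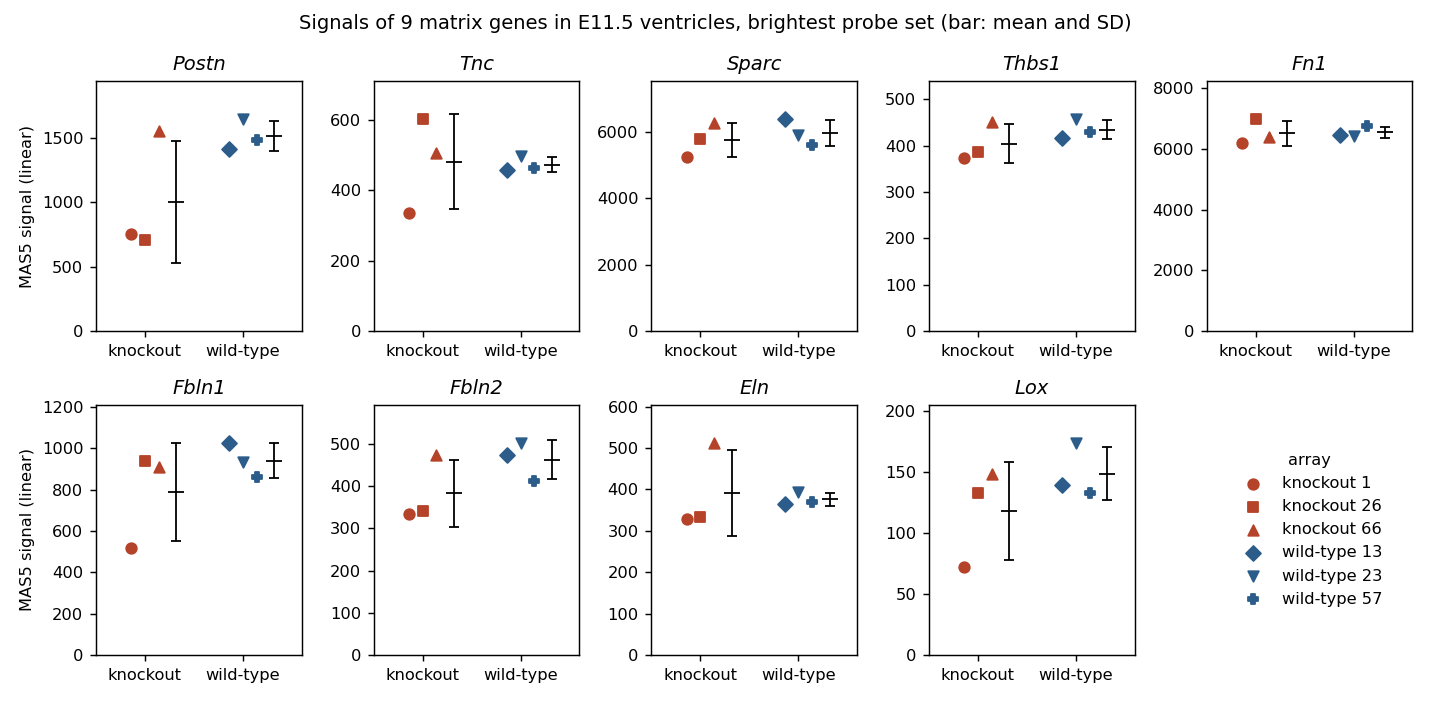
Linear MAS5 signals of the brightest probe set of each of 9 genes, by array, with knockout at the left of each panel and wild-type at the right. Each symbol is 1 array, and the bars give the mean and SD of 3 arrays. Knockout 1 and knockout 26 lie below all wild-type arrays for Postn, at 753 and 705, while knockout 66 lies among them at 1551.

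Postn encodes periostin, a matricellular protein that binds collagen and integrins and is a mark of cushion mesenchyme and activated fibroblasts. Its probe set read 753, 705 and 1551 in knockout 1, 26 and 66, against 1415, 1645 and 1480 in wild-type 13, 23 and 57. Knockout 1 and knockout 26 were below every wild-type array, and knockout 66 was second only to wild-type 23, so the groups overlapped. The means were 1003 ± 475 in knockout and 1513 ± 119 in wild-type arrays (SD, n = 3 each). This is a log2 difference of -0.68 ± 0.25 (SE), with a 95% interval from -1.22 to -0.14. In limma its p was 0.0187 unadjusted and 0.976 adjusted over the 22518 probe sets, so the difference did not pass.

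This value moved most with knockout 66. Without it the log2 difference of Postn was -1.04 ± 0.12, and in limma its adjusted p was 0.0318 over genes and 0.0692 over probe sets, so the call was made among genes and not among probe sets. In that comparison 2 of 11628 genes passed on the lower side (0.0172%). Knockout 66 was the only knockout array with Postn among the wild-type arrays, so leaving it out had to widen the difference. The call without it is therefore not separate evidence of a difference. Without knockout 1 the difference was -0.52 and without knockout 26 it was -0.48, and in neither did Postn pass. Leaving out a wild-type array gave values from -0.72 to -0.62. With array quality weights, by which arrays that scatter more count for less, it was -0.97 with an adjusted p of 0.0786 over genes. Over the 17 alternatives run for genes, the adjusted p of Postn in limma ran from 0.0318 to 1.000.

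Tnc, Sparc and Thbs1, the other matricellular genes, differed little between the group means. Tnc, whose product tenascin-C loosens the contact of cells with fibronectin, read 336, 602 and 506 in knockout 1, 26 and 66, against 458, 498 and 464 in wild-type 13, 23 and 57. Knockout 1 was the lowest and knockout 26 the highest of the 6, with the wild-type arrays between them. Its means were 481 ± 135 in knockout and 473 ± 21.6 in wild-type arrays, and its log2 difference was -0.01 ± 0.20, with an interval from -0.45 to 0.42. The sign of this small value turned without knockout 1 (0.22) or wild-type 23 (0.022), with array quality weights (0.14) and under quantile normalization (0.012). The second Tnc probe set read at most 56.7 on all arrays and did not pass the filter.

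Sparc encodes a collagen-binding, calcium-binding protein that guides collagen deposition, and was bright on every array. Its brightest probe set read 5254, 5779 and 6274 in knockout 1, 26 and 66, against 6389, 5907 and 5616 in wild-type 13, 23 and 57. Knockout 1 alone was below all wild-type arrays. The log2 difference was -0.05 ± 0.10, with an interval from -0.27 to 0.17. The other 2 Sparc probe sets gave -0.03 ± 0.10 and 0.03 ± 0.17, and in both knockout 66 was the highest of the 6 arrays, at 6197 and 319.

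Thbs1 encodes thrombospondin-1, a protein of platelets and stroma that can activate latent TGF-beta. Its brighter probe set read 374, 387 and 452 in knockout 1, 26 and 66, against 417, 457 and 429 in wild-type 13, 23 and 57. The first 2 of these knockout arrays were below all wild-type arrays and knockout 66 was among them. The log2 difference was -0.10 ± 0.15, with an interval from -0.42 to 0.22, and it was -0.18 without knockout 66, -0.05 without knockout 1, -0.08 without knockout 26 and -0.07 without wild-type 23. The dimmer probe set gave -0.03 ± 0.32, with the lowest of the 6 values in wild-type 13, at 78.8. Platelet markers passed the filter in 4 of 5 cases, with summed signals of 1872 to 2005 in knockout and 2017 to 2477 in wild-type arrays. All 4 were below 0, but without knockout 1 there were 2 below and 2 above, with a median of -0.01. The groups did not overlap for the platelet chemokine Ppbp, at 461.5 ± 41.9 in knockout and 688 ± 44.2 in wild-type arrays (-0.56 ± 0.13, adjusted p = 0.799 in limma). Such an order, with knockout lower, held in 5.43% of all genes. The groups overlapped for Gp1bb (-0.12 ± 0.20), Pf4 (-0.04 ± 0.13) and Itga2b (-0.01 ± 0.24). The part of platelets in the Thbs1 values was not tested. A further probe set that the annotation gives to both Pald1 and Thbs1 was left out by the rule.

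**Figure D2:**
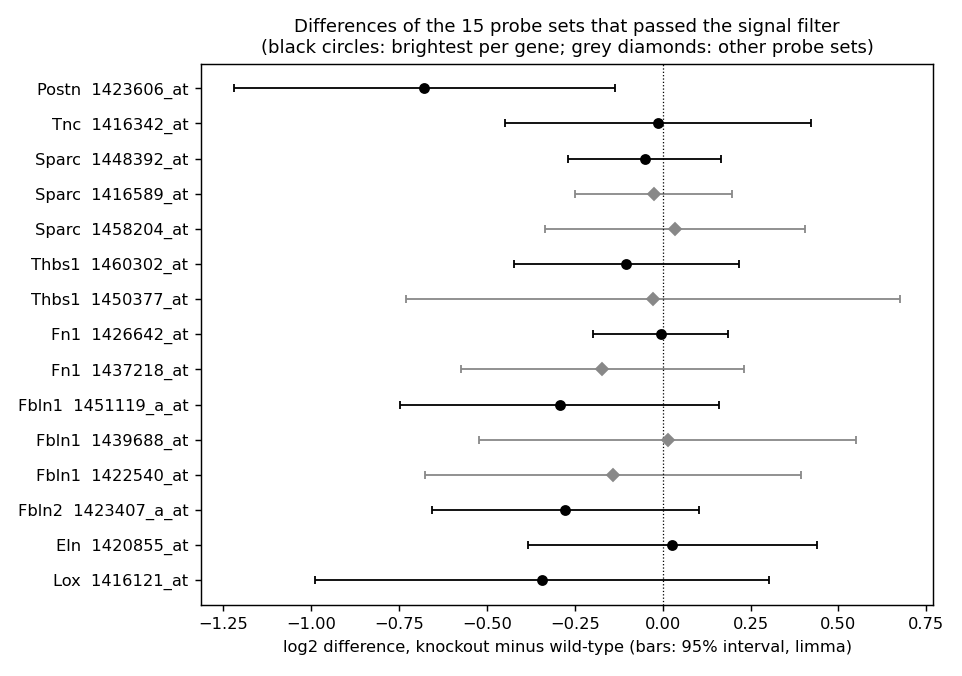
Log2 differences, knockout minus wild-type, of the 15 probe sets that passed the signal filter, with 95% intervals from limma. Only the interval of Postn, from -1.22 to -0.14, leaves out 0, and it is not adjusted for the number of probe sets tested.

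Fn1 encodes fibronectin, the fibril-forming glycoprotein that integrins assemble at cell surfaces. Its brighter probe set read 6184, 6974 and 6391 in knockout 1, 26 and 66, against 6465, 6412 and 6735 in wild-type 13, 23 and 57. The 6 values lay close together and the groups overlapped. The log2 difference was -0.0061 ± 0.087, with an interval from -0.20 to 0.19, the narrowest of the 15. The dimmer probe set read 453, 722 and 643 in knockout, against 595, 776 and 658 in wild-type arrays in the same order, a difference of -0.17 ± 0.18. There knockout 1 was the lowest by far, and without it the difference was 0.019.

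Fbln1 and Fbln2 encode fibulins, glycoproteins that bind fibronectin, fibrillin microfibrils and elastic fibres, and both are known from cushion tissue in the mouse. The brightest Fbln1 probe set read 517, 937 and 912 in knockout 1, 26 and 66, against 1026, 935 and 859 in wild-type 13, 23 and 57. Knockout 1 alone was low, while the other knockout arrays lay within the wild-type range. Its log2 difference was -0.29 ± 0.21 with all arrays, -0.02 without knockout 1 and -0.42 without knockout 66.

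The 3 kept Fbln1 probe sets did not give 1 pattern. The dimmest read 134, 250.2 and 264 in knockout, against 235, 241 and 216 in wild-type arrays, again with knockout 1 lowest, and gave -0.14 ± 0.24. The one between them in brightness read 579, 484 and 1007 in knockout, against 536, 786 and 652 in wild-type arrays, so that knockout 26 was its lowest and knockout 66 its highest array, and gave 0.01 ± 0.24. Fbln1 makes several splice forms that differ at the 3′ end. The labels and annotation do not say which of them each probe set reads. Whether such forms differ between arrays was not tested.

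The Fbln2 probe set that passed the filter read 333, 342 and 473 in knockout 1, 26 and 66, against 474, 502 and 412 in wild-type 13, 23 and 57. As for Postn, knockout 1 and knockout 26 were below every wild-type array and knockout 66 was within their range. The means were 383 ± 78.6 in knockout and 463 ± 46.0 in wild-type arrays. The log2 difference was -0.28 ± 0.17, with an interval from -0.66 to 0.10, and in limma p was 0.136 unadjusted and 0.976 adjusted. Without knockout 66 it was -0.43 ± 0.15, with an adjusted p of 0.548 over genes in limma (0.291 to 1.000 over the 17 alternatives), so Fbln2 did not pass there either. The other Fbln2 probe set read under 3 on every array.

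Eln and Lox stand for the elastic fibre itself and its crosslinking enzyme. The brighter probe set of Eln, which encodes the elastic fibre core protein tropoelastin, read 329, 333 and 512 in knockout 1, 26 and 66, against 365, 394 and 368 in wild-type 13, 23 and 57. Knockout 1 and 26 were the 2 lowest and knockout 66 the highest, on either side of the wild-type arrays. Eln gave a log2 difference of 0.03 ± 0.19 with all arrays and -0.18 without knockout 66, and the value was -0.12 with array quality weights, which gave that array the smallest weight (0.333). The dimmer Eln probe set read 16.2 to 26.1 in knockout arrays and 27.1, 142 and 31.1 in wild-type 13, 23 and 57, with a single high value, and did not pass the filter.

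Lox encodes lysyl oxidase, the copper enzyme that crosslinks elastin and collagen. The 1 of its 3 probe sets that passed the filter read 72.1, 132 and 148 in knockout 1, 26 and 66, against 140, 174 and 133 in wild-type 13, 23 and 57. Knockout 1 was well below the other 5. Its level of 72.1 lay under the 100.3 that a probe set had to exceed on average. Lox gave a log2 difference of -0.34 ± 0.29, with an interval from -0.99 to 0.30, and it shrank to -0.07 without knockout 1. The other 2 probe sets read 3.5 to 79.7 in knockout and 3.0 to 28.7 in wild-type arrays, with no level well set off from the dimmest signals. In a fit without the filter they gave 0.91 ± 0.57 and 0.53 ± 0.46, opposite in sign to the kept probe set.

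**Figure D3:**
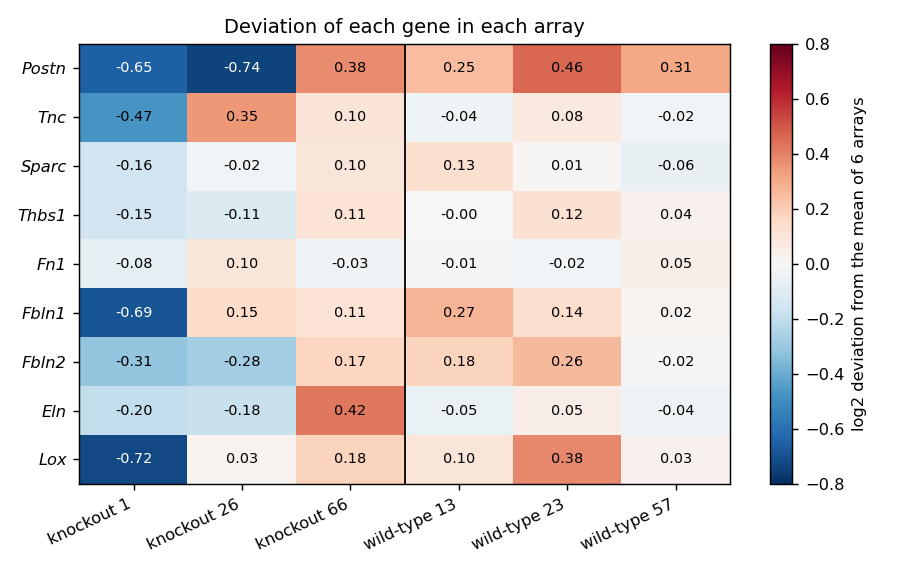
Log2 deviation of each gene in each array from that gene's mean over the 6 arrays, with knockout arrays at the left and wild-type arrays at the right of the line. Knockout 1 is below the mean in all 9 rows. Knockout 26 deviates by -0.74 for Postn but by 0.35 for Tnc.

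The knockout arrays differed among themselves in the 9 genes. Knockout 1 was the lowest of the 6 arrays in 8 of 9 genes and below all wild-type arrays in 9 of 9, where it lay below all wild-type arrays in 27.7% of all genes tested. Knockout 26 was below all wild-type arrays in 5 of 9 (25.2% of all genes) and above them in 2 of 9 (27.0%). Knockout 66 was below them in 1 of 9, Fn1 (31.4% of all genes), and above them in 2 of 9, Tnc and Eln (33.4%). The mean deviation over the 9 genes was -0.38 in knockout 1, -0.08 in knockout 26 and 0.17 in knockout 66, against 0.09, 0.17 and 0.03 in wild-type 13, 23 and 57. Only Postn, Fbln2, Eln, Sparc and Thbs1 had both knockout 1 and knockout 26 below the 6-array mean.

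The gap between knockout 1 and knockout 26 separated the members. Postn, Fbln2, Eln and Thbs1 were alike in these 2 arrays, with deviations of -0.65 and -0.74 for Postn, -0.31 and -0.28 for Fbln2, -0.20 and -0.18 for Eln and -0.15 and -0.11 for Thbs1. Tnc, Fbln1 and Lox were low in knockout 1 alone, at -0.47, -0.69 and -0.72, with knockout 26 at 0.35, 0.15 and 0.03. With 1 array of each kind, no test bears on this split. Without knockout 66, every wild-type array exceeded both remaining knockout arrays in 5 of the 9 genes, Postn, Fbln2, Eln, Thbs1 and, by 132.4 against 132.5 in the closest arrays, Lox. The same held for 12.1% of all genes, and 12.8% had the opposite order. With knockout 66 kept, wild-type arrays could exceed all knockout arrays only in Fn1, the 1 of 9 genes where knockout 66 was below them. The 5 of 9 thus depends on which array is left out.

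**Figure D4:**
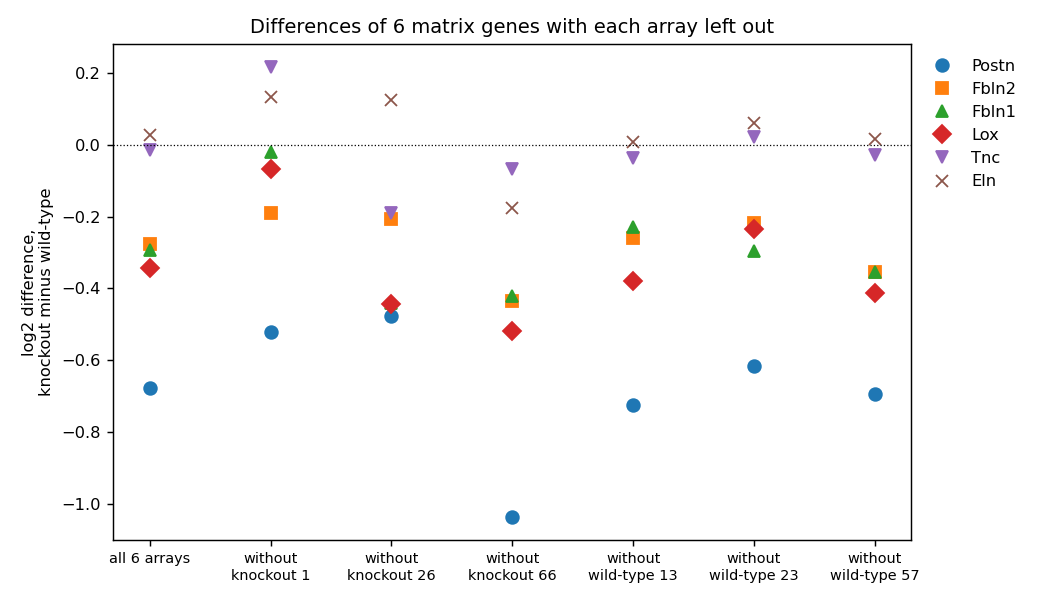
Log2 differences, knockout minus wild-type, of 6 genes with all arrays and with each array left out in turn. Postn runs from -1.04 without knockout 66 to -0.48 without knockout 26, and Tnc and Eln change sign.

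The genes most like Postn over the arrays were of other kinds. Symbols of predicted genes, RIKEN clones and most unnamed sequences were passed over in this ranking. By Pearson correlation of log2 signals over the 6 arrays, the highest of the rest was Pag1, an adaptor of Src-family kinases (0.993). Next came Saraf, a regulator of store-operated calcium entry (0.991), and Pgam2, the muscle phosphoglycerate mutase (0.989). AU015836 (0.987) and Vps26b, a retromer subunit (0.980), completed the 5. Of all 11647 genes with none passed over, 123 exceeded 0.9, among them the members Fbln2 at 0.942 and Thbs1 at 0.938. These values describe 6 arrays of which 2, knockout 1 and knockout 26, are low for Postn and 4 are high, and they share the scaling of each array. Pag1, for example, read 488, 487 and 614 in knockout 1, 26 and 66, against 586, 620 and 585 in wild-type 13, 23 and 57, a log2 difference of -0.18 ± 0.14. For the other members the correlation with Postn was 0.70 for Lox, 0.68 for Eln, 0.60 for Sparc, 0.55 for Fbln1, 0.15 for Tnc and -0.20 for Fn1.

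Other genes of matrix glycoproteins, elastic fibres and crosslinking were on the same side of 0 for the most part. Of 36 listed, 24 were tested and 0 passed. There were 18 below 0 and 6 above, where 49.5% of all genes were below. The median was -0.12, and the differences ran from -0.68 to 0.68. Without knockout 1, 16 of 25 tested were below 0 and 9 above, with a median of -0.09. With all arrays, in 3 of 24 every knockout array lay below every wild-type array (5.43% of all genes). Without knockout 66 this held in 8 of the 24 (12.1% of all genes). These 3 were Ccn2, a matricellular growth regulator, Emilin2, an elastic fibre glycoprotein, and Ltbp3, which holds latent TGF-beta in the matrix. Ccn2 read 534, 523 and 632 in knockout 1, 26 and 66, against 1116, 857 and 783 in wild-type 13, 23 and 57 (-0.68 ± 0.16, adjusted p = 0.799 in limma). Unlike Postn, Ccn2 was low in knockout 66 too. Emilin2 gave -0.33 ± 0.12, Ltbp3 -0.37 ± 0.15 and Ccn1, a matricellular relative of Ccn2, -0.51 ± 0.23, each with an adjusted p of 0.958.

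The fibrillar collagens, to which Sparc, periostin and Lox bind, had 5 of 5 tested genes below 0, a median of -0.09 and 0 calls. Without knockout 1, 3 were below 0 and 2 above. Col1a1, a chain of type I collagen, read 616, 490 and 523 in knockout 1, 26 and 66, against 727, 774 and 830 in wild-type 13, 23 and 57, without overlap (-0.51 ± 0.13, adjusted p = 0.934 in limma). Its partner Col1a2 read 1233, 1163 and 1594 in knockout, against 1496, 1976 and 1624 in wild-type arrays (-0.35 ± 0.15), with knockout 66 within the wild-type range. Without knockout 66 Col1a2 gave -0.49 ± 0.13 and Col1a1 -0.49 ± 0.14, with adjusted p of 0.416 and 0.468 over genes in limma, and 3 of the 5 collagens did not overlap, against 1 of 5 with it (12.1% and 5.43% of all genes).

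Receptors of these proteins gave 14 tested genes of 15, 11 below 0, 3 above and 0 called, with a median of -0.11 that was -0.05 without knockout 1 or knockout 26. Itgav, the integrin alpha-v chain that pairs into receptors for periostin and fibronectin, was the 1 receptor gene whose arrays did not overlap, on the higher side, at 2075 ± 69.8 in knockout and 1855 ± 81.2 in wild-type arrays (0.16 ± 0.10), where 5.37% of all genes had this order. The beta-8 chain Itgb8 gave -0.35 ± 0.22, the thrombospondin receptor Cd36 -0.31 ± 0.21 and the syndecan Sdc4 0.25 ± 0.18. TGF-beta ligands, receptors and mediators, which act upstream of several matrix genes, gave 13 tested of 15, 9 below 0, 4 above, 0 called and a median of -0.05, or -0.09 without knockout 26 or knockout 66. Their smallest p belonged to the inhibitory Smad6 (684 ± 44.0 in knockout and 797 ± 77.0 in wild-type arrays, -0.21 ± 0.13), followed by the co-receptor Eng (-0.22 ± 0.15), the shared mediator Smad4 (-0.15 ± 0.11) and the ligand Tgfb2 (-0.16 ± 0.15).

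**Figure D5:**
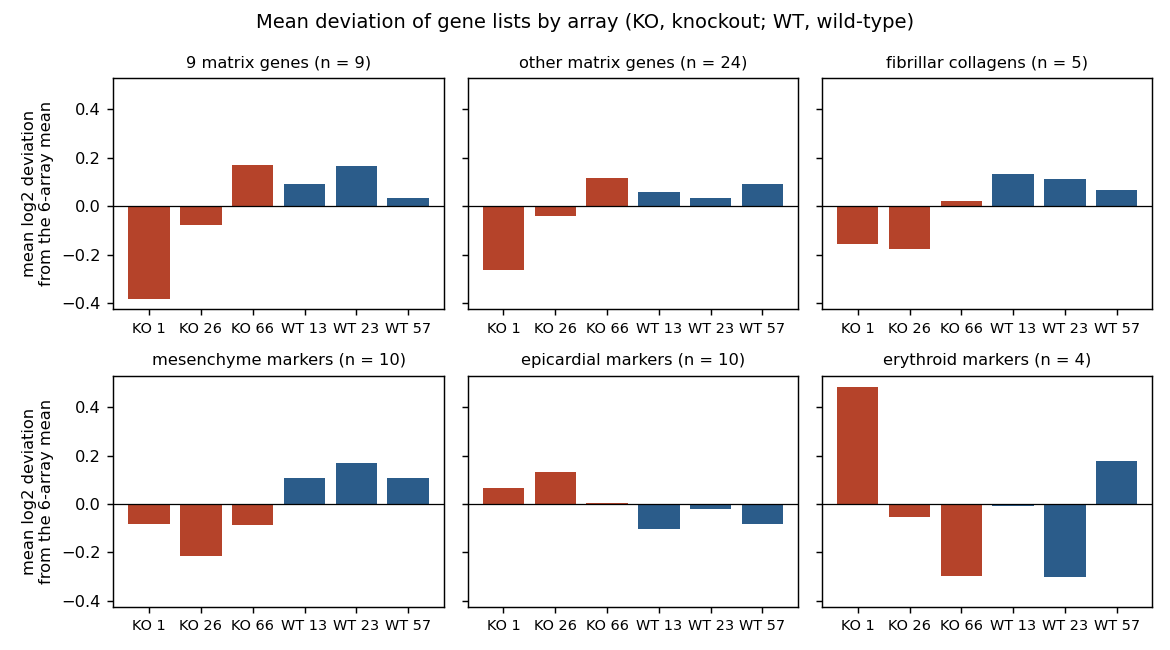
Mean log2 deviation of 6 gene lists in each array from the 6-array mean, with knockout arrays (KO) at the left and wild-type arrays (WT) at the right of each panel, and n the number of genes tested. The 9 matrix genes run from -0.38 in knockout 1 to 0.17 in knockout 66, while the mean of the 10 mesenchyme markers is below 0 in all knockout arrays. Not each marker follows that mean: Pdgfra read 1497 in knockout 66, its highest array.

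Markers of the cells that make these proteins, and of the other cells a ventricle holds, were read on the same arrays. In such bulk tissue fewer cells of a type and less RNA per cell cannot be told apart. Of 11 markers of cushion and outflow mesenchyme, 10 were tested, 7 below 0 and 3 above, 0 called, with a median of -0.15. Without knockout 1 there were 5 below and 5 above, with a median of -0.07, and without knockout 26 the median was -0.29. Their summed signal was 3291, 3182 and 3704 in knockout 1, 26 and 66, against 3618 to 3970 in wild-type arrays. Snai2, a transcription factor of mesenchymal transition, gave -0.76 ± 0.24, the mural cell receptor Pdgfrb -0.47 ± 0.17, the homeobox factor Meox1, dim at 87.0 ± 54.0 in knockout and 211 ± 86.3 in wild-type arrays, -1.22 ± 0.46 and Twist1 -0.25 ± 0.16. The 3 markers above 0 were Msx2 at 0.32 ± 0.26, Pdgfra at 0.14 ± 0.21 and Sox9 at 0.0033 ± 0.20. Snai2 read 235 in knockout 66, its lowest array, where Postn read 1551, its second highest. The mean deviation of the mesenchyme markers was -0.08, -0.21 and -0.09 in knockout 1, 26 and 66, against 0.11, 0.17 and 0.11 in wild-type 13, 23 and 57. Their part in the Postn values was not tested.

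Epicardial markers, all 10 tested, were above 0 in 6 and below in 4, with a median of 0.06 and summed signals of 5929 to 6984 in knockout and 5665 to 6204 in wild-type arrays. All knockout arrays exceeded all wild-type arrays in 2 of the 10 (5.37% of all genes), and without knockout 66 in 5 of 10 (12.8% of all genes), with a median of 0.15. Krt8, a keratin of simple epithelia, gave 0.80 ± 0.17, Lrrn4 0.40 ± 0.20, the epicardial factor Wt1 0.30 ± 0.17 and the uroplakin Upk3b -0.19 ± 0.14. Erythroid markers, 4 of 5 tested, had summed signals of 70230, 55902 and 54318 in knockout 1, 26 and 66, against 49048 to 58033 in wild-type arrays, so that knockout 1, the array lowest in 8 of the 9 matrix genes, was the highest in blood markers. Its erythroid mean deviation was 0.48, against -0.05 and -0.30 in the other knockout arrays and -0.30 to 0.18 in wild-type arrays. The part of blood content in the low matrix signals of knockout 1 was not tested. Endothelial and endocardial markers, all 8 tested, gave a median of 0.06 with 5 above 0, and summed signals of 4407 to 4644 in knockout and 4334 to 4595 in wild-type arrays. Macrophage markers passed the filter in 3 of 6 cases (median 0.08), and smooth muscle markers in 3 of 4 (2 above 0, 1 below, median 0.08), with the smooth muscle actin Acta2 at 0.27 ± 0.08, Tagln at 0.08 ± 0.12 and calponin Cnn1 at -0.19 ± 0.15. Among the markers that did not pass were Snai1 of mesenchyme, Gp9 of platelets, Myh11 of smooth muscle and Cd68, Fcgr3 and C1qa of macrophages.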

How the data were processed

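RNA of 6 ventricle samples, 3 skNAC knockout and 3 wild-type, was read on Affymetrix mouse 430 2.0 arrays. Per the submitters' processing notes, the authors made the deposited intensity values per probe set with the tools GCOS and MAS5, of which no version, scaling setting or detection call is given here. Groups follow the sample titles. Genes were named from the platform annotation, where 34945 probe sets had 1 symbol, 932 had several and 9160 non-control probe sets were not listed. Probe sets whose mean over the 6 arrays exceeded 100.3, the median of all but the control probe sets, were kept, which left 22518. In limma 3.58.1 (R 4.3.3), log2(intensity + 16) was fitted by lmFit with a trended eBayes (two-sided tests), with p-values Benjamini-Hochberg adjusted over all probe sets or, with the brightest probe set per gene, over 11648 genes. Differences and SEs of members are from the fit over probe sets; values with an array left out and those of other genes are from the fit over genes. The number of arrays limits the precision. On simulated data with 22518 probe sets, the same fit recovered 30% of changes of 0.5 on the log2 scale, 72% of 1, 88% of 2 and 90% of 3, with 14 false calls. The simulated noise was normal and independent, with the median SD of probe sets of like brightness. No simulated array was made to stand apart from the others, so these shares may not hold for the real arrays. The members, lists and naming rule were chosen with earlier results of these data known. The rule named all members, up to 4 genes of smallest p per list, and the 5 genes most like Postn. Symbols of predicted genes, RIKEN clones and most unnamed sequences were passed over for these 5. From the endothelial and erythroid lists no gene was named, and from the macrophage list only markers that were not tested. Some further markers were named to show both directions. No probability is given for the lists as sets. Alternatives were pseudocounts of 1 and 64, no filter, a 70th percentile filter, quantile normalization, centring on medians, eBayes without a trend or robust, weighting arrays by quality, dropping probe sets with the suffix _x_at or _s_at, averaging the probe sets of a gene, a threshold of 0.1 and leaving out each array. Figures used Matplotlib 3.10.9 under Python 3.11.15.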

Additional observations from a re-analysis of the deposited data

How the results depend on the processing

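Neither a missing call nor a stable sign shows that a gene did not differ: with 3 arrays per genotype, changes of 0.5 on the log2 scale were mostly missed in simulated data. No paired analysis was possible because the genotypes share no replicate number. Postn, Fbln1, Fbln2, Lox and Thbs1 kept a negative difference on their brightest probe set under all alternatives run for them; Lox did not pass the 70th percentile filter and has no value there. Postn ranged from -1.04 to -0.48. The median over the members, -0.10 with all arrays, ranged from -0.19 to -0.02 with 1 array left out. The median deviation over the members had an SD of 0.157 between single arrays, pooled within genotypes, which is larger than the -0.10. That SD is of single arrays and is not the error of a difference between group means. With array quality weights 6 probe sets and 8 genes passed, none of them a member. With 1 array left out, 0 to 2 probe sets, 0 to 2 genes and 0 to 1 member genes passed; the member was Postn without knockout 66, at -1.04. The cause of the turned signs was not tested. All were of genes or probe sets whose difference with all arrays was smaller than its SE. The turned value itself could exceed its SE, as for Tnc without knockout 1 (0.22 ± 0.15) and Eln without knockout 66 (-0.18 ± 0.14). Tnc was 0.012 with quantile normalization and 0.14 with array quality weights, and ranged from -0.19 to 0.22 with 1 array left out. Eln was -0.12 with array quality weights and ranged from -0.18 to 0.13 with 1 array left out. Fn1 was 0.0065 with centring on array medians and 0.054 with array quality weights, and ranged from -0.056 to 0.031. Sparc ranged from -0.11 to 0.014. Of the other probe sets with 1 array left out, the brighter and the dimmer of Sparc ranged from -0.12 to 0.023 and from -0.072 to 0.10, the brighter and the dimmer of Fbln1 from -0.29 to 0.23 and from -0.30 to 0.15, that of Fn1 from -0.31 to 0.019 and that of Thbs1 from -0.26 to 0.14. With array quality weights the brighter of these Fbln1 probe sets was -0.31 and the dimmer of the Sparc ones -0.025.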
